A study of Mus musculus with 4 samples.

Results

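Gene expression in the gastrocnemius, a calf muscle made mostly of fast fibres, was compared between exercised and sedentary mice that carried no tumor. The comparison took 2 of the 4 libraries of the series, normal exercise (E+T-) and normal control (E-T-), with 1 library for each group. A gene row entered it where its normalized read count reached 16 in at least 1 of the pair, which held for 12470 of the 23282 rows. Of the rows nearest to this minimum, Selp, with normalized read counts of 6.44 in normal control and 16.1 with exercise, was the lowest inside, and Pop1, whose higher value was 15.99, the highest outside. The remaining libraries, of sedentary (E-T+) and exercised (E+T+) mice with cancer, came from animals injected through the tail vein with CT26 murine colorectal cancer cells and are used below only for values set side by side.

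According to the labels and the methods, all groups were CDF1 mice, a hybrid laboratory strain, and all were male. The labels give an age of postnatal day 28, which is about the age at purchase in the methods. Normal exercise mice ran on a motorized treadmill at high intensity on alternate days, while normal control mice did not run, and neither group received cancer cells. The series names 10 mice per group, whereas the results text of the study has a representative mouse sequenced from each group, so that the number of animals behind each library is not settled. With 1 library on each side there is no replicate, and no difference below has a test of the condition. The time between the last run and dissection is not given in the sources used here, so that the response to a single run and the effect of repeated training cannot be told apart.

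Skeletal muscle fibres are built from sarcomeres whose myosins, troponins and tropomyosins exist in slow and fast forms encoded by separate genes. Slow fibres rely on mitochondrial oxidation and fast fibres more on glycolysis, and endurance work, disuse and nerve activity are known to shift genes of both programs. Around the fibres lies a matrix of collagens and proteoglycans made mainly by fibroblasts, together with vessels, nerve, fat cells and blood, all of which contribute RNA to a whole muscle sample. In such bulk RNA, fewer cells of a type and less RNA per cell cannot be told apart.

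The reads came from 3′ mRNA sequencing (QuantSeq), in which a transcript gives reads from its 3′ end, so that long genes do not gain reads by their length. The files give normalized read counts on a log2 scale after adding 1, and the whole reads behind them were rebuilt. Normal control held 11269860 reads and normal exercise 13226041. Differences are normal exercise minus normal control on that log2 scale, and each interval printed is a 95% Clopper-Pearson interval of the share of reads, which covers counting error only and not the difference between animals. Markers of the labelled tissue were abundant in both libraries. Skeletal actin (Acta1) had normalized read counts of 347342 against 271387 (normal control against normal exercise, the order used throughout unless the groups are named), and muscle creatine kinase (Ckm) of 116259 against 123400.0.

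Between normal exercise and normal control, 753 rows were at least 2-fold higher with exercise, 6.04% of the 12470 rows, and 988 rows were at least 2-fold lower, or 7.92%. Together 14% of the rows were past 2-fold. The counts of 2-fold genes in every list below are to be read against these shares. A gene below the minimum in 1 library passed only through the other, so that its passing and its direction are linked. The median log2 difference over all rows was -0.001, with quartiles of -0.38 and 0.35, and 68.8% of the rows differed by less than 1.5-fold. The 2-fold differences were concentrated among low genes: they made up 37.0% of the rows whose higher value lay between 4 and 6 on the log2 scale but 4.38% of those between 8 and 10. Of the 72 rows above 14 on that scale, 0 were 2-fold higher and 7 were 2-fold lower. These 7 were Mb, Sparc and globin rows, some of which may count the same reads. When reads were scaled to the total of each library instead, the median difference moved up by 0.16, and the split became 1029 rows higher and 781 lower, 56.9% higher among the 2-fold rows in place of 43.3%. A list median slightly below 0 can therefore change sign, which is said where it does.

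**Figure D1:**
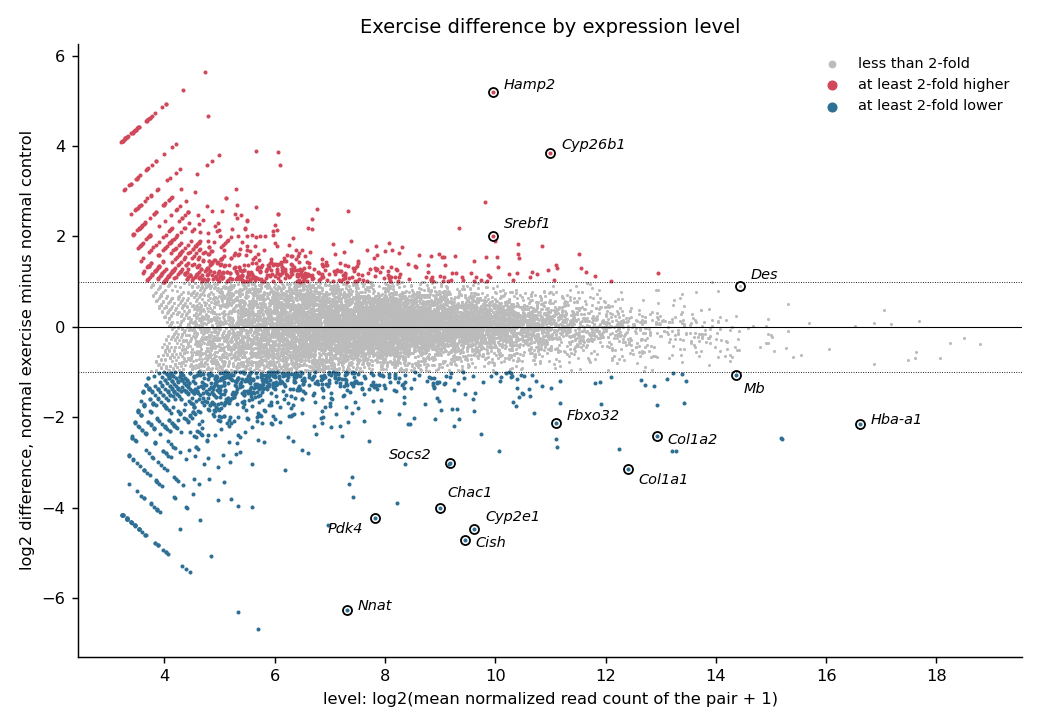
Each point is 1 of the 12470 rows, with its level as log2 of the mean normalized read count of the pair plus 1 on the x axis and its log2 difference, normal exercise minus normal control, on the y axis. Dotted lines mark 2-fold. The cloud narrows toward higher levels, Hamp2 and Cyp26b1 stand apart above it, and Cish, Cyp2e1 and Col1a1 below it.

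Among genes with many reads, the largest rise was that of Hamp2, a mouse hepcidin gene. Hepcidin is a peptide hormone, made chiefly by liver, that lowers iron export from cells by acting on ferroportin. The normalized read count of Hamp2 went from 52.2 in the control muscle to 1929.8 with exercise, on 49 and 2381 reads, a log2 difference of 5.18 (95% counting interval 4.80 to 5.65). Its neighbour Hamp, the main mouse hepcidin gene, had 6 and 36 reads and a difference of 2.02 (0.93 to 3.73). Hamp2 lies on chromosome 7 at 30922372 to 30924181 and Hamp at 30942368 to 30944029 (GRCm38). The last 150 bases of their transcripts gave 127 aligned bases, of which 91.3% were identical, so that reads can be shared between the pair and their assignment is uncertain. The RefSeq promoters (GRCm38.p6, 250 bases before to 50 after the annotated start, minus strand) are printed because both genes were higher with exercise, Hamp2 far more so. Over 297 aligned bases, 92.9% were identical, and capitals mark the mismatches.
Hamp, chr7:30943980-30944279: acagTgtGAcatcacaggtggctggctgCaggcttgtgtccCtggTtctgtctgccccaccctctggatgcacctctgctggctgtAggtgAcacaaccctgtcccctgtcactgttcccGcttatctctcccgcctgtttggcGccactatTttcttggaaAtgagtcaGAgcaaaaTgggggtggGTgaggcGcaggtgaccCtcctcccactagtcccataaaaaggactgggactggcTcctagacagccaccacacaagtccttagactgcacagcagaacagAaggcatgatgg
Hamp2, chr7:30924132-30924431: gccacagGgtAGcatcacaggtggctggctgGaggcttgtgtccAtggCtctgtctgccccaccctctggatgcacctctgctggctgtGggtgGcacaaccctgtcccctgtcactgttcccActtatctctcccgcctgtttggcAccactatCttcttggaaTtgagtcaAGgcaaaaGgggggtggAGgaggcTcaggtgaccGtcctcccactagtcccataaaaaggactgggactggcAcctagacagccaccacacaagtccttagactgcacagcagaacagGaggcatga

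Other iron genes moved little or fell. Iron exporter ferroportin (Slc40a1) was lower, at 335 against 137, a difference of -1.28 (-1.57 to -1.02). Smad7, an inhibitor of BMP signalling, the pathway that drives hepcidin in liver, rested on 67 and 31 reads, a difference of -1.48 (-2.17 to -0.87), and the BMP target Id1 was 533 against 299 (-0.83). Ferritin heavy chain (Fth1) was 25815 against 26248, transferrin receptor (Tfrc) 1329.7 against 1748 and hemojuvelin (Hfe2), a BMP co-receptor of muscle and liver, 6793 against 6644. Of 19 iron genes past the minimum, 2 were 2-fold higher, both of them the hepcidins, and 2 were 2-fold lower, Slc40a1 and Smad7.

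The next largest rises among rows with a value of at least 10 on the log2 scale were those of Cyp26b1, Ctxn3 and Rasd2. Cyp26b1, which encodes an enzyme that degrades retinoic acid, was 264 against 3829, a difference of 3.85 (3.67 to 4.05). Ctxn3, a small membrane protein gene, was 229.7 against 1571. Rasd2, encoding a Ras-like GTPase, was 232 against 1059.8. Mustn1, a nuclear protein gene active in growing and regenerating muscle, was 591 against 2115, and Pm20d2, an enzyme of dipeptide metabolism, 433 against 1604. Each of these 5 genes had at least 216 reads in both libraries.

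The largest fall at that level was that of Cish, which encodes a SOCS family inhibitor of cytokine receptors and is a known target of STAT5, the transcription factor that growth hormone activates. Its normalized read count went from 1341 in the control muscle to 50.1 with exercise, on 1261 and 62 reads, a log2 difference of -4.71 (95% counting interval -5.13 to -4.37). Socs2, another STAT5 target that restrains growth hormone signalling, was 1032 against 127, a difference of -3.01 (-3.27 to -2.77). Igf1, the growth factor that growth hormone induces, was 2269.8 against 876, a difference of -1.37 (-1.48 to -1.27). These genes were all lower in the exercised muscle. The promoter of Cish (RefSeq, GRCm38.p6, plus strand) is printed because it holds the motif TTCNNNGAA, the palindrome that STAT factors bind, which reads the same on both strands. The motif occurs 2 times near the annotated start, in capitals, while 8.30% of all 32851 promoters of this length hold at least 1 match and 0.457% at least 2. A match is a description of these letters and not a measured binding site.
Cish, chr9:107296409-107296708: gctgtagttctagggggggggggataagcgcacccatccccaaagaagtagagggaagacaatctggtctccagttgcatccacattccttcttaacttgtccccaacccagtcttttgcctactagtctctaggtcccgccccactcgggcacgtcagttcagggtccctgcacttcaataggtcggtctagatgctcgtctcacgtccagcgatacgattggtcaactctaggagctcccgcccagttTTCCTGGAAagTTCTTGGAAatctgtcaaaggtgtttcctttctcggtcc

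Other genes of the pathway were chosen after their values were seen. Growth hormone receptor (Ghr) was 1527 against 1508, Stat5a 113.8 against 148.4 (0.38) and Stat5b 1453 against 1879.6. Jak2, the kinase of that receptor, was 351 against 238. Socs1 rested on 29 and 17 reads, a difference of -1.11 (-2.12 to -0.25). Igfals, the binding partner of circulating IGF1, rested on 23 and 8 reads, a difference of -1.78 (-3.29 to -0.70). Most genes known from liver were also lower in this pair, as given below, and whether Igfals went with them was not tested.

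Of the contractile lists, slow fibre genes had the most rises. Of 17 genes past the minimum, 14 were higher and 5 were at least 2-fold higher, against 6.04% of all rows, and 1 was at least 2-fold lower. Their median difference was 0.67. Slow troponin I (Tnni1) was 267 against 777, a difference of 1.54 (1.34 to 1.75). The slow regulatory light chain Myl2 was 1281 against 3157 (1.30), slow troponin C (Tnnc1) 748 against 1692 (1.18), and the slow myosin heavy chain Myh7 379 against 867, a difference of 1.19 (1.02 to 1.37). Myl6b rested on few reads, 29 and 83, with a difference of 1.10 (0.50 to 1.79). Myh7 overlaps the Mhrt transcript and Myl2 overlaps Ccdc63 in RefSeq, and reads of overlapping genes cannot be told apart without the strand setting, which is not given in the sources used here.

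Genes of the same list that serve oxygen and energy rather than contraction went the other way. Myoglobin (Mb), the oxygen store of the fibre, was 28684 against 13738, a difference of -1.06 (-1.09 to -1.03). Mitochondrial creatine kinase (Ckmt2) was 9754 against 5014 (-0.96). The third lower member was Myh7b, a minor myosin heavy chain, at 143 against 104 (-0.45). Mb and Ckmt2 were the most abundant members, and the list as a whole took 0.458% of all reads in the control muscle and 0.414% with exercise, although most of its members were higher.

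Fast fibre genes were lower by smaller amounts. Of 18 genes, 14 were lower, 1 of them at least 2-fold, and the median difference was -0.45. The fast IIb myosin heavy chain Myh4 was 228842 against 137302, a difference of -0.74 (-0.75 to -0.73). Myh1, the IIx form, was 7701 against 4450.3 (-0.79), and Myh2, the IIa form, 7733 against 5144 (-0.59), so that all fast myosin heavy chains of this list were lower while the slow form was higher. The fast light chain Myl1 was 152769 against 86115 (-0.83) and parvalbumin (Pvalb), the calcium buffer of fast fibres, 246119 against 152769 (-0.69). Fast troponin I (Tnni2) was 202420.0 against 221047 (0.13) and fast troponin T (Tnnt3) 144028 against 150248 (0.06), so that the fast genes did not move as a block. The only 2-fold member was Myoz3, a Z-disc calcineurin binding protein, at 1508 against 658. The fast genes took 18.9% of all reads in the control muscle and 16.4% with exercise.

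**Figure D2:**
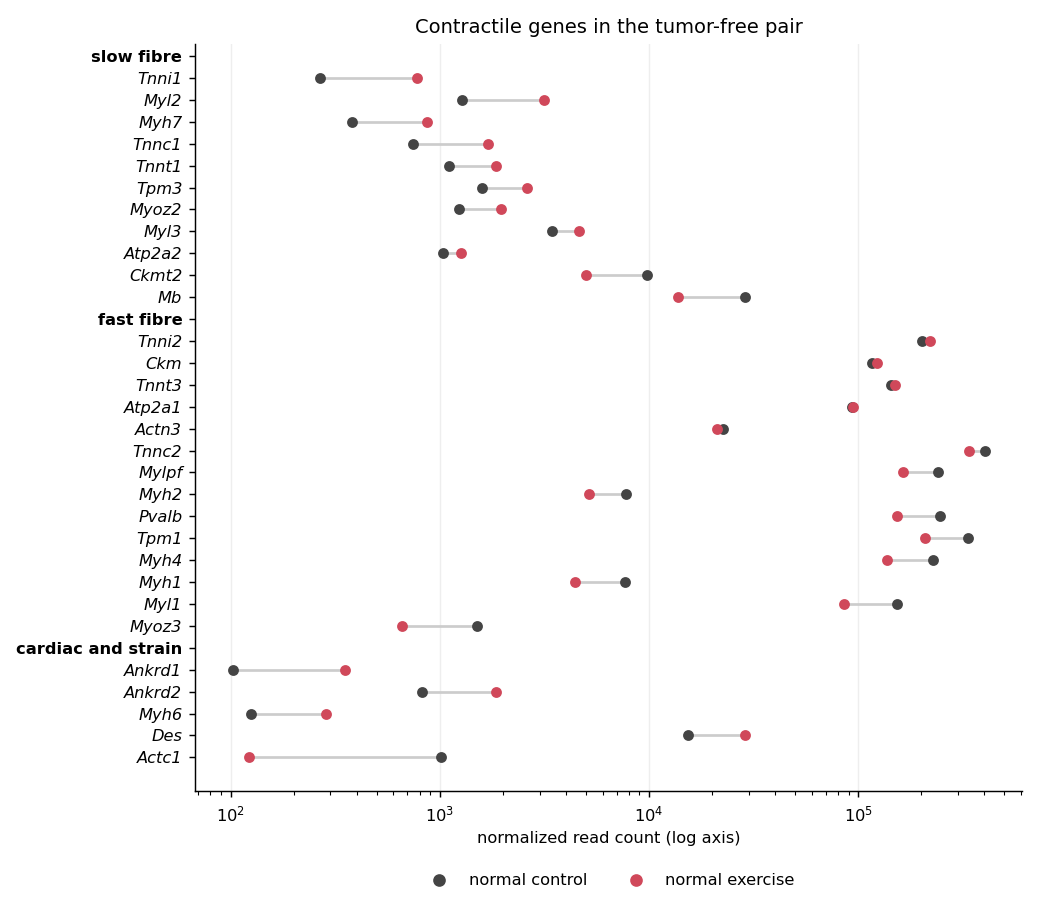
The normalized read count, on a log axis, of each named gene in normal control (grey) and normal exercise (red), 1 library each. The red points lie to the right for 9 of the 11 slow fibre genes drawn and to the left for Ckmt2 and Mb, and the fast genes sit at higher levels with red points to the left, except Tnni2, Ckm, Tnnt3 and Atp2a1, where they overlap or lie slightly to the right.

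Of 11 developmental and cardiac sarcomere genes, 3 were at least 2-fold higher and 1 lower. Ankrd1, a titin-binding stress protein, was 102 against 352, a difference of 1.78 (1.47 to 2.12), and Ankrd2 was 819.9 against 1860.2 (1.18). The third was Myh6, a cardiac myosin heavy chain. Desmin (Des), the intermediate filament that ties myofibrils together, was 15435 against 28704 (0.90), and Myom3, an M-band protein of slower fibres, 78.8 against 209.8 (1.40). The cardiac actin gene Actc1, which adult skeletal muscle keeps low, was 1013 against 123, a difference of -3.03 (-3.30 to -2.79). Nebulin (Neb) was 35609 against 27611 and telethonin (Tcap) 24678 against 14683. The 23 scaffold genes had a median of 0.03, and Myom3 was the only one past 2-fold.

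Of 23 genes of calcium release, 11 were higher and 12 lower, with 1 past 2-fold each way. The ryanodine receptor Ryr1 was 6849.5 against 5315 and triadin (Trdn) 52644 against 33248. Mrln, which encodes the calcium pump inhibitor myoregulin, was 5021 against 2119 (-1.24), and sarcolipin (Sln), a pump regulator of slow muscle and atria, 45.8 against 138 (1.58). Of 16 genes of the nerve contact, 4 were at least 2-fold higher and 1 lower, against 6.04% and 7.92% of all rows. Musk, the kinase that organizes the neuromuscular junction, went from 10 to 80 reads, with an interval of 1.66 to 3.72. It passed the minimum only through the exercise library, so that its passing and its direction are linked. Rapsn, which clusters acetylcholine receptors, was 272 against 588 (1.11), and myogenin (Myog), which drives receptor genes, 76.6 against 174 (1.18). Myf5, a satellite cell factor, rested on 39 and 18 reads (-1.45). The satellite cell marker Pax7 was 24.4 against 22.1.

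Extracellular matrix genes were lower as a group. All 7 fibrillar collagen genes past the minimum were at least 2-fold lower with exercise, against 7.92% of all rows, with a median difference of -2.20. These collagens form the tensile fibrils of connective tissue. Col1a1 was 9741 against 1096, a difference of -3.15 (-3.24 to -3.07), and its partner chain Col1a2 13178 against 2453, a difference of -2.42 (-2.48 to -2.37). Col3a1, the second main fibril collagen of soft tissue, was 8421 against 1299.6, a difference of -2.69 (-2.77 to -2.62). The chains that nucleate fibrils fell too, Col5a2 from 995 to 215 and Col5a1 from 739 to 249. As a share of all reads, the fibrillar collagens went from 0.283% to 0.0526%.

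Collagens of the basement membrane and microfibrils differed less. Of 17 other collagen genes, 15 were lower and 7 were at least 2-fold lower, with a median of -0.84. The basement membrane chains Col4a1 and Col4a2, whose genes overlap in RefSeq, were 2069.8 against 1239 (-0.74) and 996 against 727 (-0.45). The microfibril chains of collagen VI were close to each other, at -0.99 for Col6a1, -1.12 for Col6a2 and -1.07 for Col6a3. Col4a5, a chain of specialized basement membranes, fell from 31 reads to 3, a difference of -3.36 (-6.11 to -2.08).

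Among matrix glycoproteins, Sparc, a collagen-binding protein, was 16739 against 5212, a difference of -1.68 (-1.73 to -1.64). Periostin (Postn), a protein of remodelling matrix, was 160.5 against 50.2 (-1.66), and fibrillin 1 (Fbn1), which builds microfibrils, 886 against 338 (-1.39). Fibronectin (Fn1) was 1703 against 789 (-1.11). Laminin genes, which anchor the fibre itself, did not follow: Lama2 was 264 against 274, Lamb2 1198 against 1346 and Lamc1 478 against 527. Of 29 genes in this list, 8 were at least 2-fold lower and 1 at least 2-fold higher.

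All 11 small leucine-rich proteoglycan genes past the minimum were lower, 4 of them at least 2-fold, with a median of -0.63. These proteins coat collagen fibrils and set their width. Decorin (Dcn), the most abundant, was 57888 against 37431 (-0.63). Fibromodulin (Fmod) was 2343 against 815, a difference of -1.52 (-1.63 to -1.41), lumican (Lum) 1707 against 804 (-1.08) and keratocan (Kera) 486 against 126, a difference of -1.93 (-2.21 to -1.68). Biglycan (Bgn) was closer, at 1040.2 against 829.6 (-0.33). Enzymes that process collagen were lower by less, with a median of -0.48 over 19 genes and 1 past 2-fold, the procollagen protease Adamts2 at 451 against 186. Lysyl oxidase (Lox), which cross-links collagen, was 375 against 268 (-0.48) and the collagen chaperone Serpinh1 769.7 against 487 (-0.66). Of 16 protease and inhibitor genes 4 were at least 2-fold lower, among them the gelatinase Mmp2 at 1495 against 696 (-1.10), and 1 higher, the inhibitor Timp1 on 14 and 47 reads. Timp1 passed the minimum only through the exercise library.

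**Figure D3:**
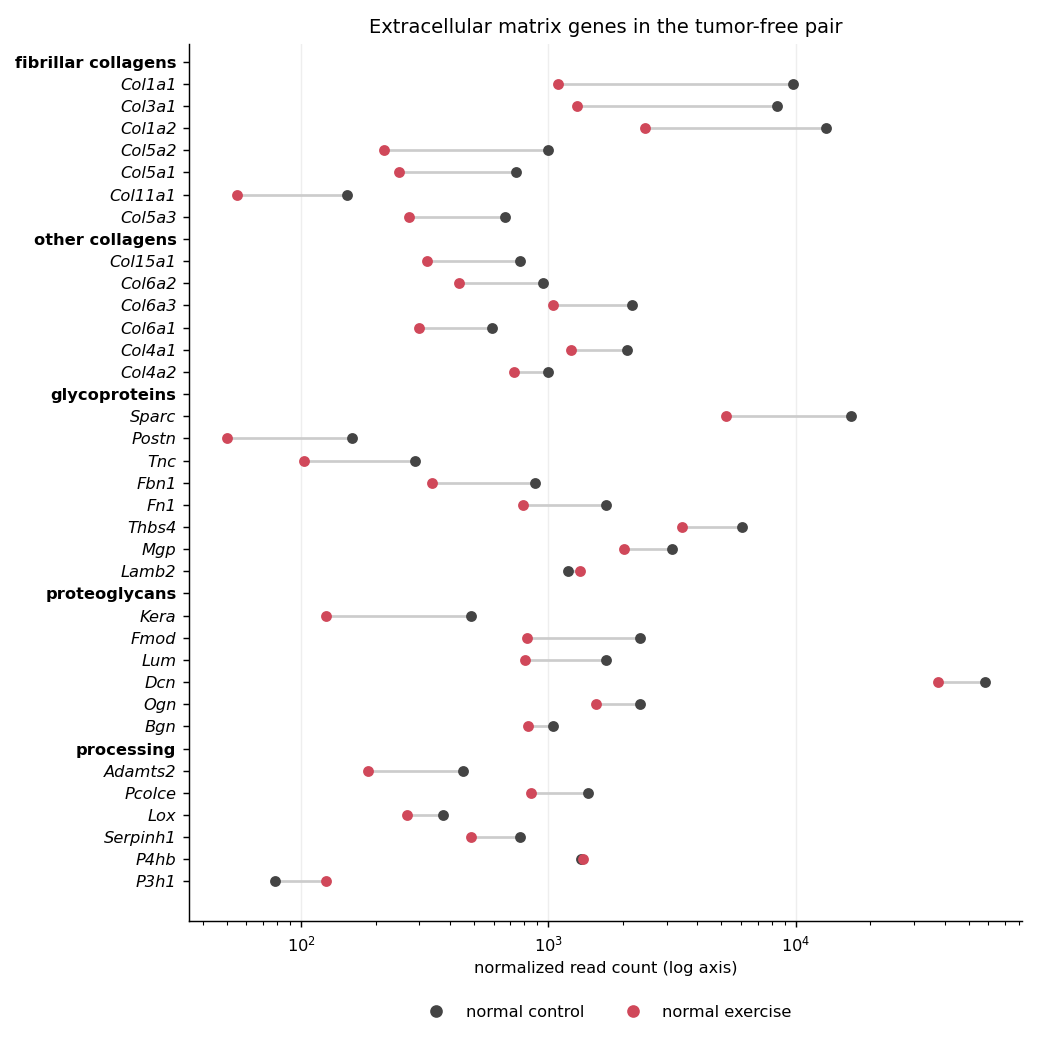
The normalized read count, on a log axis, of each named matrix gene in normal control (grey) and normal exercise (red), 1 library each. All 7 fibrillar collagen lines run far to the left with exercise, most other matrix lines run less far to the left, and those of Lamb2, P4hb and P3h1 do not run left.

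Markers of the cells that make this matrix moved in the same direction. Of 12 tendon genes, 11 were lower and 5 at least 2-fold lower, against 7.92% of all rows, with a median of -0.78. Tenomodulin (Tnmd) was 769 against 187 (-2.03), Comp 186 against 53.5 (-1.78) and the tendon factor Scx 309 against 189.7 (-0.70). The exception was Egr1, also an immediate-early gene, at 98.9 against 263 (1.40). Of 18 fibroblast genes, 16 were lower, 6 at least 2-fold, and the median was -0.44. The 1 gene at least 2-fold higher was Osr2, a transcription factor gene, on 50 and 151 reads. Dermatopontin (Dpt) was 2975 against 1169 (-1.35), while Pdgfra, the receptor that defines muscle fibroblasts, was 518 against 384 (-0.43) and Pdgfrb 229 against 232 (0.02). The lists share genes with the matrix lists (Dcn, Lum, Fmod, Kera and others), and the part of fibroblast and tendon content in the collagen difference was not tested.

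Genes of mitochondrial respiration were lower by small amounts across complexes, and 0 of them were past 2-fold. In complex I, 32 of 38 genes were lower, with a median of -0.25. In complex III with cytochrome c all 10 were lower, with a median of -0.58. In complex IV 12 of 13 were lower, with a median of -0.31, and in ATP synthase 16 of 17, with a median of -0.32. Over all rows 50% were lower and 49.9% higher. Cytochrome c1 (Cyc1) was 2816 against 1496 (-0.91), and cytochrome c (Cycs) 9101 against 5784 (-0.65). Cox7a1, a muscle form of a complex IV subunit, was 9627 against 6084 (-0.66), whereas Cox6a2, a muscle form of another subunit, was 33502 against 47841 (0.51). In the citric acid cycle the median was -0.23, with 16 of 22 genes lower, and citrate synthase (Cs) was 3829 against 3077. These medians keep their sign under total-count scaling, where they are nearer to 0. The files hold 0 rows of the mitochondrial genome.

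Of 24 regulators of mitochondria, 10 were higher and 14 lower. Ppargc1a, the PGC-1α gene that endurance exercise is known to induce for some hours, was 514 against 391, a difference of -0.39 (-0.58 to -0.21). Esrra was 862 against 641, Ppara 137 against 71.2, Tfam 575 against 552 and Mfn2 2069.8 against 2409. The deacetylase gene Sirt3 was 214 against 45.3, a difference of -2.21 (-2.69 to -1.80), and was the only member of that list past 2-fold.

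Among fuel genes, the largest falls were those of Pdk4, Angptl4 and Ucp3. Of 14 genes of pyruvate oxidation 1 was at least 2-fold lower and 1 higher, and of 22 genes of fatty acid uptake and storage 4 were lower and 2 higher. Pdk4, which shuts off pyruvate oxidation when fat is used, was 427 against 21.7, a difference of -4.23 (-4.90 to -3.72). The kinase genes Pdk2 and Pdk1 were 3276 against 4450.3 and 513 against 474, and Pdk3, the 2-fold rise, rested on 9 and 26 reads (1.05). Pdk3 passed the minimum only through the exercise library. Angptl4, an inhibitor of lipoprotein lipase, was 168 against 23.3, a difference of -2.80 (-3.46 to -2.26), and the uncoupling protein gene Ucp3 592 against 145, a difference of -2.02 (-2.28 to -1.78). The lipid droplet genes Plin4 and Plin5 were 2051 against 605 (-1.76) and 194 against 63.8 (-1.58). Lipoprotein lipase (Lpl) was 12756 against 6316 (-1.01). In contrast Plin2, the droplet coat gene of most tissues, was 292 against 631 (1.11), and G0s2, an inhibitor of triglyceride breakdown, 1459 against 4441, a difference of 1.60 (1.52 to 1.69).

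The enzymes of fatty acid oxidation themselves differed little. Of 26 genes in that list, 1 was past 2-fold, which was Ucp3, and the median of -0.10 turned to 0.06 under total-count scaling. Muscle carnitine palmitoyltransferase (Cpt1b) was 1467 against 1679.9, and medium-chain acyl-CoA dehydrogenase (Acadm) 2597 against 2489. Glycolysis had a median of -0.06, which turned to 0.10 under that scaling, with 1 of 24 genes past 2-fold, Pfkfb1 at 394 against 183. Aldolase A (Aldoa) was 118867 against 153831 (0.37) and enolase 3 (Eno3) 40313 against 27745 (-0.54), so that abundant glycolytic genes moved in both directions. Hexokinase 2 (Hk2) was 2714 against 3543, the glucose transporter Slc2a4 4251 against 4675, and the glycogen targeting subunit Ppp1r3c 12296 against 21246 (0.79).

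Lipid synthesis genes rose at several steps. Of 23 genes, 6 were at least 2-fold higher and 1 at least 2-fold lower, against 6.04% and 7.92% of all rows, with a median of 0.41. Srebf1, the transcription factor gene that insulin induces to drive fatty acid synthesis, was 394 against 1595, a difference of 2.02 (1.86 to 2.18). The enzyme genes ATP citrate lyase (Acly) and fatty acid synthase (Fasn) were 709.7 against 2031 (1.52) and 2897 against 5877 (1.02). Mid1ip1, which aids acetyl-CoA carboxylase, was 823 against 2859, a difference of 1.79 (1.68 to 1.91). The desaturases parted, with Scd2 at 466 against 1353 (1.54) and Scd1, abundant in fat cells, at 8895 against 3945, a difference of -1.17 (-1.22 to -1.12). Of the sterol synthesis genes, Hmgcs1 was 1042 against 930.2 and Fdps 83.0 against 147.

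Ketone and amino acid genes were mostly lower. Of 25, 7 were at least 2-fold lower and 1 at least 2-fold higher, against 7.92% and 6.04% of all rows, with a median of -0.52. Oxct1, which lets muscle burn ketone bodies, was 5340.4 against 2279, a difference of -1.23 (-1.30 to -1.16). Branched-chain amino acid breakdown was lower at Bcat2, 220.2 against 93.1 (-1.23), Dbt, 417 against 158 (-1.40), and the activating phosphatase Ppm1k, 320.1 against 126 (-1.34), but Bckdhb was 407 against 414. The polyamine enzyme Amd1 was 12211 against 5456 (-1.16), and glutamine synthetase (Glul) 5594 against 2887 (-0.95).

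**Figure D4:**
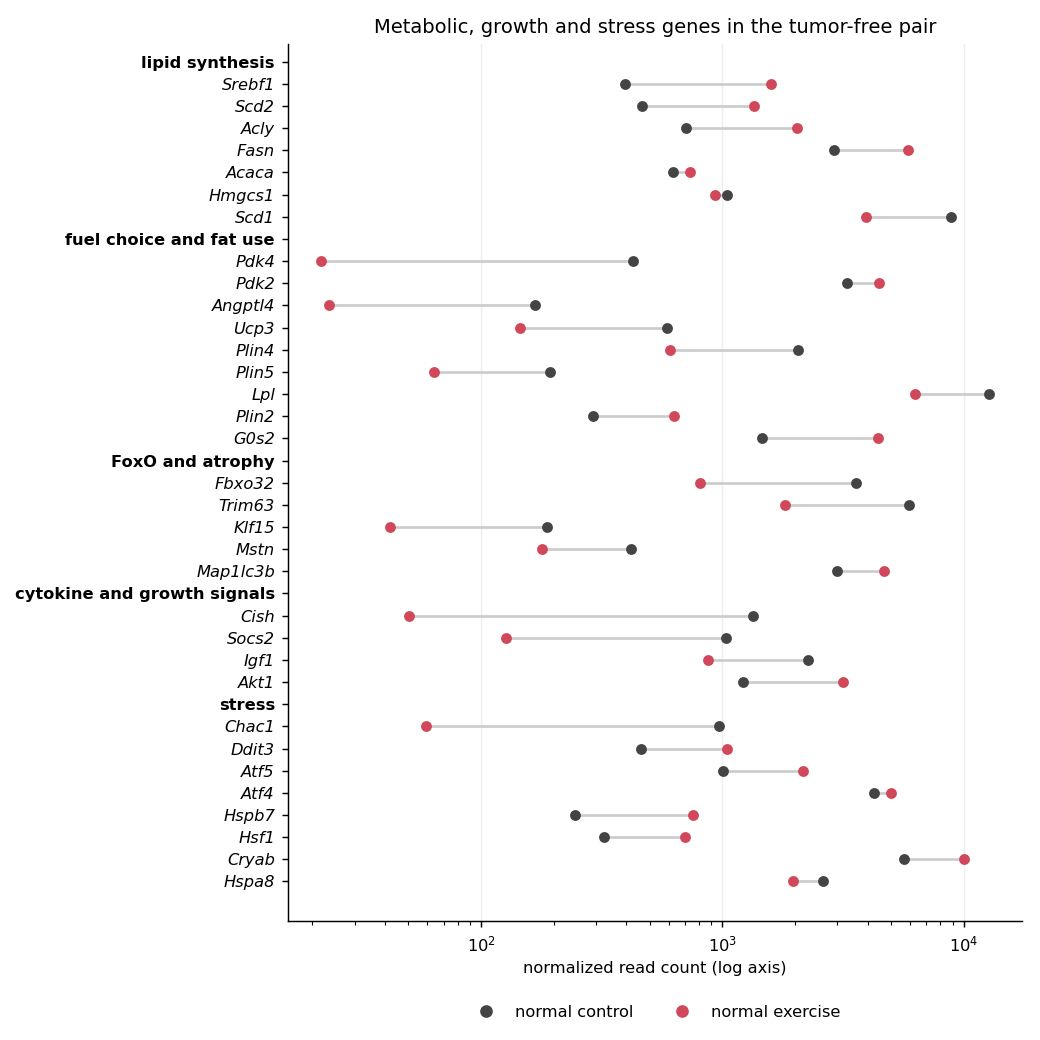
The normalized read count, on a log axis, of metabolic, growth and stress genes in normal control (grey) and normal exercise (red), 1 library each. Srebf1, Acly and Fasn run to the right with exercise, whereas Pdk4, Cish and Chac1 run furthest to the left, each by more than 4 on the log2 scale.

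Several genes that the FoxO factors and glucocorticoids are known to induce in wasting muscle were lower. The ubiquitin ligases Fbxo32 (atrogin-1) and Trim63 (MuRF1) were 3575 against 812, a difference of -2.14 (-2.24 to -2.04), and 5950.3 against 1828, a difference of -1.70 (-1.77 to -1.63). Klf15, a transcription factor of amino acid breakdown, was 187 against 42.0, a difference of -2.13 (-2.63 to -1.70). Myostatin (Mstn), which limits muscle growth, was 420.1 against 178 (-1.23). Fkbp5, a glucocorticoid target, was 562 against 289 (-0.95), yet Tsc22d3, another such target, was 3443 against 3602, and Foxo1 itself 629.8 against 513. Of 33 genes in the list, 5 were at least 2-fold lower (Pdk4, Fbxo32, Klf15, Trim63 and Mstn), against 7.92% of all rows, and 0 were 2-fold higher, against 6.04%. The list median of -0.09 turned to 0.07 under total-count scaling. Autophagy genes were near 0, with a median of 0.03 and 0 of 32 past 2-fold.

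Growth factor genes were lower on balance, with a median of -0.44 over 28 genes, 6 of which were at least 2-fold lower, against 7.92% of all rows. Beside Igf1, Fstl1, a secreted glycoprotein, was 2091 against 759.6 (-1.46), and the myostatin receptor gene Acvr2b 190.3 against 91.5 (-1.05). The only 2-fold rise was that of Akt1, a kinase of insulin and IGF signalling, at 1220.1 against 3159.6, a difference of 1.37 (1.28 to 1.47). Igf1r was 282 against 310.5 and Mtor 235 against 285. Of 21 myokine and exercise genes, 7 were at least 2-fold lower and 2 at least 2-fold higher, against 7.92% and 6.04% of all rows. The higher ones were Ifrd1, given below, and the chemokine gene Ccl2, on 17 and 53 reads. Il15, a cytokine of muscle, was 229 against 86.7 (-1.39), and Bdnf, a neurotrophin, fell from 44 reads to 2, a difference of -4.28 (-7.94 to -2.91). Fndc5, the irisin precursor, was 950.5 against 624 (-0.61), and Vegfa 1470.4 against 1179.

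Stress genes were mixed. Among 31 heat shock genes, 2 were at least 2-fold higher and 0 lower, with a median of 0.20. Of the small heat shock genes, Hspb7 was 246 against 756, a difference of 1.62 (1.41 to 1.84), Cryab 5680.3 against 10057 (0.82) and Hspb6 8134 against 13381 (0.72). Hspb8, at 6489 against 7885 (0.28), and Hspb1, at 4955 against 4783 (-0.05), differed less. The heat shock factor Hsf1 was 322 against 701 (1.12). The inducible HSP70 genes Hspa1a and Hspa1b were 61.7 against 72.9 and 54.3 against 48.6. The constitutive HSP70 gene Hspa8 was 2604 against 1973 (-0.40), and Hsp90aa1 was 2202 against 1552 (-0.50). Cryab and Hspb2 overlap in RefSeq.

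In the integrated stress response, which acts through ATF4, members parted. Chac1, an enzyme that degrades glutathione, was 968 against 59.0, a difference of -4.01 (-4.40 to -3.69). Ddit3 (CHOP) and Atf5 were higher, at 459 against 1049 (1.19) and 1009.6 against 2159 (1.10), and Atf4 was 4254 against 4989.6. Chaperones of the endoplasmic reticulum differed little, such as Hspa5 at 4138 against 3815. The metallothioneins Mt1 and Mt2, which metals and glucocorticoids induce, were 1293 against 1383 and 727 against 731. Of 27 antioxidant genes 0 were past 2-fold, with Sod1 at 7706 against 11568 (0.59) and thioredoxin reductase 1 (Txnrd1) at 495 against 400.4 (-0.30). Immediate-early genes had 3 members 2-fold higher and 2 lower of 25. Egr1 was higher, as given above, whereas Jun was 1238 against 725 (-0.77), Fos rested on 19 and 9 reads, and Nr4a2 on 26 and 3. Nr4a3, a nuclear receptor gene known to respond to acute exercise, rested on 10 and 22 reads.

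Proteasome genes were higher by small amounts. Of 46 genes, 40 were higher and 1, Psmc4 at 564 against 1157, was at least 2-fold higher, with a median of 0.34. The catalytic subunit gene Psmb5 was 1068 against 1479.6 (0.47), the core subunit Psma7 5548 against 9795 (0.82) and the lid subunit Psmd8 2192 against 4314 (0.98). The proteasome took 0.565% of all reads in the control muscle and 0.854% with exercise. Cytosolic ribosomal proteins had a median of 0.11 with 0 of 81 past 2-fold.

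The circadian clock runs in muscle through CLOCK and BMAL1 (Arntl), which activate genes holding the E-box CACGTG, among them their own repressors. Most clock genes were higher, whereas Arntl, Clock, Nfil3 and Cry1 were lower. Of 22 genes past the minimum, 18 were higher, 4 at least 2-fold, and 0 were 2-fold lower, with a median of 0.41. Nr1d1 (REV-ERBα), a repressor of Arntl, was 149 against 461, a difference of 1.62 (1.36 to 1.91), and Per3 52.2 against 126 (1.25). Bhlhe41 was 448 against 923 (1.04). Arntl was 187 against 99.6 (-0.90) and Clock 370.2 against 247 (-0.58). Per1, Per2 and Dbp were close, at 41.5 against 45.2, 282 against 294 and 365 against 388. The hour of dissection of each group is not given in the sources used here, so that time of day and exercise cannot be told apart. Nr1d1 overlaps Thra and Per3 overlaps Uts2. Ciart, a repressor of CLOCK and BMAL1, went from 0 to 24 reads and was 6.10-fold higher with the control set to a floor of 3 reads. It overlaps C920021L13Rik. Its promoter (RefSeq, GRCm38.p6, minus strand) is printed because it held 3 E-boxes, in capitals, and the gene had the largest rise of the list. With 0 control reads, Ciart passed the minimum only through the exercise library, so that its passing and its direction are linked. It was picked for these features, and whether E-boxes went with a rise was not tested. The E-box, which reads the same on both strands, was in a promoter of 6 of the 19 clock genes with a RefSeq promoter, Ciart, Bhlhe41, Tspan4, Cry1, Per1 and Tef, and in 8.09% of all gene symbols with one. Nr1d1 and Per3 held none in this window, which says nothing about factors bound elsewhere.
Ciart, chr3:95882179-95882478: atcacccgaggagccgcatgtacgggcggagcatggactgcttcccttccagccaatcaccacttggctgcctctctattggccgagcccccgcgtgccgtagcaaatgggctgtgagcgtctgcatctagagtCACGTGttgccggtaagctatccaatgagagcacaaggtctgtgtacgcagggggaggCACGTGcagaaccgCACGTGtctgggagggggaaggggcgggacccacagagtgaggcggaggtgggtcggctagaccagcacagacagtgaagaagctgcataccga

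All 12 red cell genes past the minimum were lower. Of these 8 were at least 2-fold lower, against 7.92% of all rows, with a median of -2.15. The 17 rows of this list took 2.77% of all reads in the control muscle and 0.634% with exercise. The alpha globin Hba-a1 was 163734 against 36737, a difference of -2.16 (-2.17 to -2.14), and the beta globin Hbb-bs 63522 against 11448, a difference of -2.47 (-2.50 to -2.45). Hbb-b1 held nearly the same reads as Hbb-bs, 58863 against 59726 in normal control, and Hbb-b2 nearly those of Hbb-bt, so that these rows may count the same reads and their assignment is uncertain. The count, the median and the share of reads above treat them as separate rows. Alas2, the red cell form of the first heme enzyme, was 557 against 126 (-2.14). Fech, the last heme enzyme, which most tissues use, was 1333 against 1309. According to the methods the mice were bled at death. Blood left in the muscle and globin transcripts per blood cell cannot be told apart here.

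Most genes known from liver were low in both libraries and lower with exercise. Of 31 rows, 17 passed the minimum. Of these 14 were at least 2-fold lower, against 7.92% of all rows, and 2 higher, against 6.04%, the hepcidins already described. The median was -1.96, or -1.05 with a pseudocount of 16. Cyp2e1, an ethanol-oxidizing enzyme of liver and fat, was 1503 against 67.1, a difference of -4.46 (-4.82 to -4.16), and Pck1, the gluconeogenic enzyme that fat cells use to make glycerol, 307 against 29.8, a difference of -3.32 (-3.89 to -2.86). Albumin (Alb), the defining liver transcript, was 373 against 100.3, a difference of -1.89 (-2.20 to -1.59). Transthyretin (Ttr) rested on 34 and 3 reads and the fibrinogen chain Fgg on 18 and 0. Cpb2, a plasma carboxypeptidase, fell from 40 reads to 0, 17.5-fold lower at a floor of 3 reads. The upper end of its counting interval was -3.76. Ttr, Fgg and Cpb2 passed the minimum only through the control library, and Hamp only through the exercise library. For such genes passing and direction are linked. The list took 0.0227% of all reads in the control muscle and 0.0213% with exercise, where Hamp2 alone gave 2381 reads. The hepcidins were thus higher in the library in which albumin and most other liver transcripts were lower.

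Fat cell genes were lower. Of 19 past the minimum, 15 were lower and 8 at least 2-fold lower, against 7.92% of all rows, with a median of -0.93. The fat hormone gene adiponectin (Adipoq) was 1939 against 753, a difference of -1.36 (-1.48 to -1.25), adipsin (Cfd) 12085 against 3642, a difference of -1.73 (-1.78 to -1.68), and leptin (Lep) 71.0 against 9.61 (-2.76). The droplet coat gene Plin1, which defines fat cells, was 147 against 87.6 (-0.74) and Fabp4 22087 against 15607 (-0.50), while Retn was 472 against 484. The imprinted gene Nnat was 314 against 3.09, from 295 and 4 reads, a difference of -6.27 (-8.48 to -5.22). It lies inside Blcap. Dlk1, an imprinted brake on fat cell formation, was 89.1 against 4.70, a difference of -3.98 (-5.69 to -3.02). The falls of Lpl, Scd1 and Plin4 went with these markers, and the part of fat cell content in them was not tested.

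Few genes of vessels and macrophages were past 2-fold. Of 22 vessel genes 0 were past 2-fold, with Pecam1 at 1029 against 1289 (0.33) and Kdr at 529 against 742 (0.49). Of 20 macrophage genes 1 was past 2-fold, Cx3cr1 at 14.9 against 63.5, which passed the minimum only through the exercise library. The defining markers Adgre1 and Csf1r were 71.3 against 88.4 and 849 against 1003. Neutrophil genes were low, with 6 of 15 past the minimum, 3 of them at least 2-fold higher (S100a8 at 17.1 against 71.2, Lcn2 and Il1b), while S100a9 was 50.1 against 75.2. Their median of 1.29 was 0.58 over the 11 genes with any reads, and a gene near the minimum passes only through the library where it is higher. For lymphocytes 2 of 16 rows passed. Of nerve genes, the myelin gene Mbp was 1657 against 877 (-0.92) and S100b, a Schwann cell marker, 644 against 196, a difference of -1.71 (-1.94 to -1.50). Peripherin (Prph), a filament of nerve cells, rested on 10 and 62 reads (2.15) and passed only through the exercise library.

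**Figure D5:**
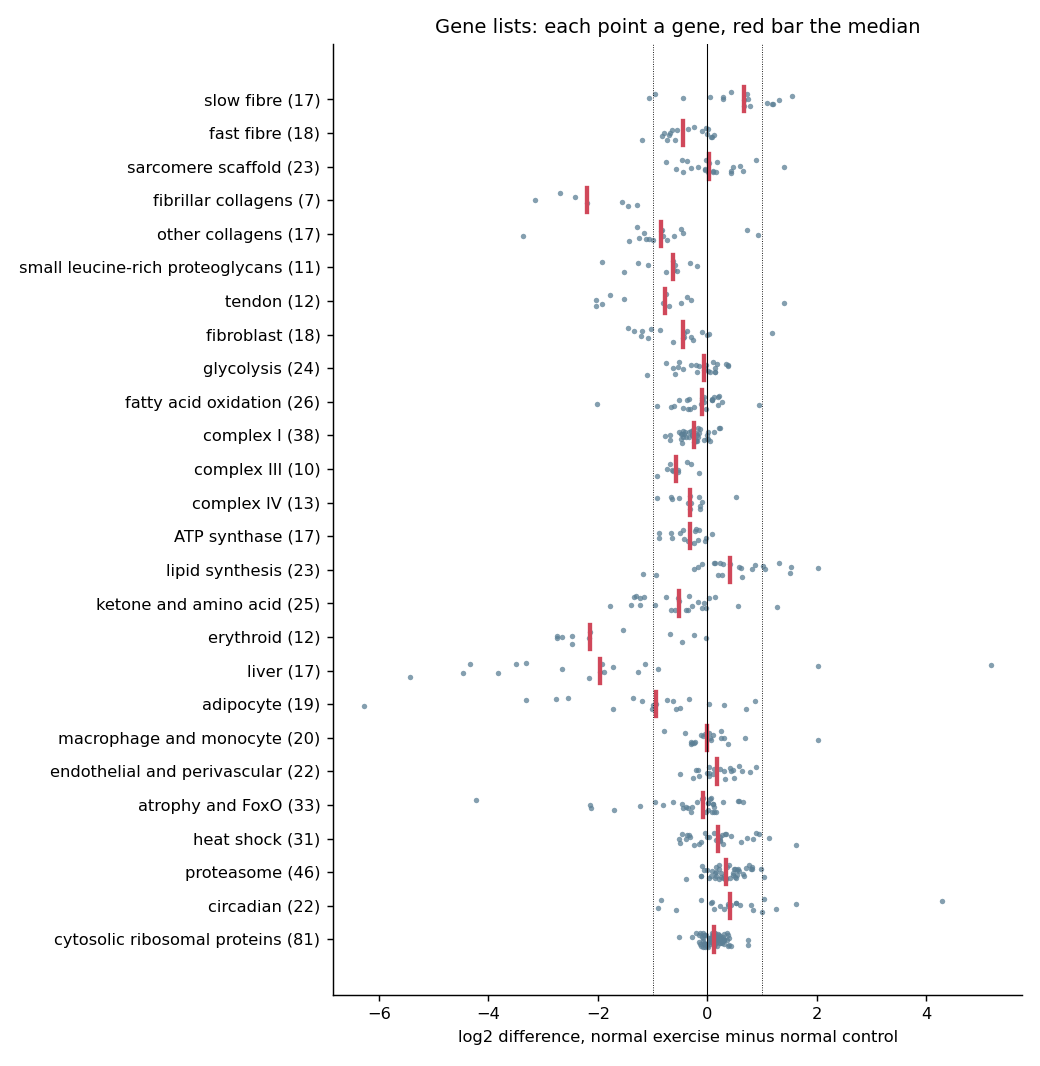
Each point is a gene of the named list past the minimum, at its log2 difference on the x axis, and the red bar is the median of the list, with the number of genes in brackets. Dotted lines mark 2-fold. The medians of fibrillar collagens, erythroid and liver genes lie near -2, that of slow fibre genes at 0.67, and those of glycolysis and fatty acid oxidation near 0.

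The largest differences at any level rested mostly on genes without reads in 1 library. Of the 12 largest rises, 10 had 0 reads in normal control. Ttc9 had the most, going from 0 to 63 reads, and Hps1, an exception like Hamp2, went from 1 to 64. Of the 12 largest falls, Klhl38, a kelch protein gene of muscle, went from 74 reads to 0. Prnd, which encodes the prion-like protein doppel, went from 96 to 0. With the exercise library set to a floor of 3 reads, they were 32.4-fold and 42.0-fold lower. The upper ends of their counting intervals were -4.68 and -5.07 on the log2 scale.

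The 13 candidate genes taken here are those that the text of the study names from a longer set, which it selected for 2-fold changes in these libraries, so that their passing is not independent evidence. Of them 6 were higher and 7 lower with exercise in tumor-free muscle. Those not yet described were Asb2, a ubiquitin ligase subunit, at 6021 against 2791 (-1.11), Ifrd1, a transcriptional co-regulator, at 1070.2 against 2401 (1.17), Six2 at 265 against 613 (1.21), Osr2 at 53.2 against 122 (1.19) and Maff at 37.3 against 84.9 (1.17).

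The same lists were set beside the exercise difference in tumor-bearing mice, cancer exercise minus cancer control, which shares no library with this pair. There 12.4% of 12485 rows were at least 2-fold higher and 11.4% at least 2-fold lower. The slow fibre median was 0.67 without a tumor and -0.75 with it, and the fast fibre median -0.45 and 0.53. Fibrillar collagens were -2.20 and 1.31, and complex I genes -0.25 and 0.49. In mice with cancer the fibrillar collagens took 0.00953% of all reads without exercise and 0.0174% with it, under both tumor-free shares. Red cell genes were -2.15 and 1.22, and fat cell genes -0.93 and 1.07. Proteasome genes were 0.34 and -0.29, while lipid synthesis genes were 0.41 and 0.21. Cish was -4.71 and 0.82, Pdk4 -4.23 and -0.13, and Srebf1 2.02 and 0.90. With 1 library in each of the 4 groups the difference between these effects could not be tested.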

How the data were processed

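Gastrocnemius RNA was measured by 3′ mRNA sequencing in 4 libraries, 1 per group, and groups were taken from the sample titles. According to the methods, the authors used Bowtie2 for alignment and bedtools coverage to obtain gene counts, which they quantile-normalized in edgeR. The submitters' processing notes name mm10. Tool versions, annotation, strand setting and the handling of reads matching several genes are not given in the sources used here. The files deposited by the authors hold 23282 rows of normalized read counts on a log2 scale, with 1 added before the logarithm.

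Whole reads were rebuilt by inverting the quantile adjustment, with a fitted dispersion of 0.339, and every deposited log2 value lay within 0.0006 of that of a whole read count. In the control and the exercise library 95.5% and 93.8% of values fitted only 1 whole number of reads, and the others, those of abundant genes, are approximate, as are the totals. These were 11269860 reads in the control muscle and 13226041 with exercise, so that 3 reads, the floor used for fold changes of genes at 0, are normalized read counts of 3.19 and 2.43. Such folds leave out the counting error of the higher library and are not limits of the counting interval. Log2 differences were taken on the deposited scale, with its pseudocount of 1, which understates the change of low genes. Counting intervals (95%) were taken by the Clopper-Pearson method from each gene's share of the pair's reads and the effective library sizes. QuantSeq reads are taken here to carry no molecular identifiers, so that intervals and floors cover counting error only. The adjustment brings each library to a common size, so that a change in the total RNA of the muscle is not visible. The rebuilding and the interval code were tested on simulated data.

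A row was called when its difference was at least 1 on the log2 scale. The members and the 62 gene lists were chosen with earlier results of these data known. Named by rule were the 12 largest rises and falls at each of the minimum and a log2 value of at least 10, the 6 members of each list with the highest level and the 4 with the largest difference, and the 13 candidate genes of the study. Other members were chosen after their values were seen, as were Ghr, Stat5a, Stat5b, Socs1, Igfals, Jak2 and Acta1. Of 517 genes named by rule, 96 overlap another row of the files in RefSeq. RefSeq (GRCm38.p6) matched 22024 of 23238 symbols and supplied positions and promoters, which were aligned with Biopython. The 13 alternatives were scaling by median of ratios, by TMM or to the total count, total count without the 10 most abundant genes, pseudocounts of 4 and 16, minima of 4 and 64, a mean of at least 16, no minimum, thresholds of 1.5-fold and 4-fold, and thinning of the deeper library. Python 3.11.15, numpy 2.4.6, scipy 1.17.1 and pandas 2.3.3 were used. Some results are not reported here. No columns of the authors' own comparisons were in the files used.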

Additional observations from a re-analysis of the deposited data

Results flagged for a closer look

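The results here are those in which exercise moved expression at least 2-fold one way without a tumor and at least 2-fold the other way with it, among named genes with a log2 value of at least 10 in the tumor-free pair, and lists whose medians lay beyond 0.5 on opposite sides. Each value is the log2 difference in tumor-bearing muscle minus that in tumor-free muscle. With 1 library per group none of these differences was tested, although the pairs share no library. Of 517 named genes, 96 were past 2-fold in both pairs, 58 of them in opposite directions and 22 of these at the stated level. No minimum was set for the tumor-bearing pair, so that some of the 96 and 58 rest on very few reads there. Cpb2, for example, had 0 and 1 read in sedentary and exercised mice with cancer, which counts as 2-fold on this scale. Many named genes were picked for a large difference in the tumor-free pair, and the same share over all rows was not taken. Asb2, Col1a1, Col3a1, Ifrd1 and Tnnc1 are also candidates that the study selected for 2-fold changes in these libraries. Their passing here is therefore not independent evidence.

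For lists, the value was -1.42 for slow fibre genes, 3.51 for fibrillar collagens, 1.48 for small leucine-rich proteoglycans, 1.63 for tendon genes, 3.37 for red cell genes and 1.999 for fat cell genes. Each median covers the members past the minimum in its own pair, for tendon genes 12 without a tumor and 7 with it.

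The matrix genes named here were lower with exercise without a tumor and higher with it. Levels differed between the pairs: Col1a1 was 124 in sedentary and 377 in exercised mice with cancer, both under its tumor-free counts of 9741 and 1096. The value was 4.74 for Col1a1, 3.99 for Col3a1, 3.39 for Col6a3, 3.65 for Fmod, 2.91 for Lum and 2.74 for Dpt.

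Globin genes had the same pattern, with 3.17 for Hba-a1, 3.69 for Hba-a2, 3.69 for Hbb-bs, 3.69 for Hbb-b1, 4.14 for Hbb-bt and 4.14 for Hbb-b2. These paralogs can share reads. Cyp2e1 had 5.75 and Cfd 2.85, both also expressed by fat cells, whose list moved the same way.

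Fibre genes were on both sides. Myl2 had -2.44 and Tnnc1 -2.37, 2-fold higher with exercise in the tumor-free pair and 2-fold lower in the other, whereas Myoz3 had 2.399 and Asb2 3.42. Hamp2 had the largest value of the 22 genes, at -6.61, going from a normalized read count of 5366 in sedentary to 1989.6 in exercised mice with cancer. The desaturase gene Scd2 had -3.00, Ifrd1 -2.30 and the proteasome gene Psmc4 -2.12. The part of blood, fat and connective tissue content in these values was not tested.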

How the results depend on the processing

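No paired analysis was possible because each group had 1 library, and for the same reason no library could be left out. The counts of 753 higher and 988 lower rows became 370 and 545 with a pseudocount of 16, 1371 and 1750 at a minimum of 4, 315 and 439 at a minimum of 64, 1658 and 2232 with no minimum, 1829 and 2067 at 1.5-fold and 183 and 268 at 4-fold. The share higher among the 2-fold rows was 43.3%, against 56.9% with total-count scaling, 57.0% after thinning the deeper library and 49.7% with the 10 most abundant genes left out of the total. Total-count scaling moved the median of all rows by 0.16. With it and after thinning, the slow fibre median was 0.83 and 0.84 and the fast fibre median -0.29 in both, or -0.37 without the 10 most abundant genes. The erythroid median was -1.99 with total-count scaling and -1.67 with no minimum, and the liver median, -1.96 as reported, was -1.05 with a pseudocount of 16 and -3.32 at a minimum of 64. These medians kept their direction under every alternative run. The lymphocyte median of 0.73, from 2 genes, reversed to -0.52 with a mean of at least 16. Over the other 56 lists, 55 of 615 recomputed medians moved outside the range set by the median lower and the median upper counting limit of their members. That range is not an interval of the list median. Of all 61 lists with a median 19 changed sign somewhere, 1 of them among the 16 with a median beyond 0.5. Of 185 named genes past 2-fold 0 changed sign, and 18 were under 2-fold with total-count scaling. Differences of genes with few reads are limited by depth, and none of these settings replaces a replicate animal.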

Other observations

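Genes of immune defence and cell division, which belong to no comparison above, were mostly close or lower with exercise. Of 26 antigen presentation and interferon genes, 1 was at least 2-fold higher and 1 lower. The presentation genes Tap1 and Tap2 were 31.9 against 69.0 (1.09) and 95.7 against 166 (0.79), whereas the interferon-induced genes Ifit3 and Rsad2 were 157 against 93.3 (-0.75) and 88.3 against 55.0 (-0.67). The median of this list, -0.03, changed sign under total-count scaling. Of 15 acute phase genes 10 were lower, with haptoglobin (Hp) at 529.8 against 273 (-0.95) and Saa3 at 114 against 57.4 (-0.98). Lcn2, an iron-binding protein of neutrophils and epithelia, rested on 5 and 33 reads. Il1b, a cytokine of neutrophils and macrophages, went from 0 to 21 reads.

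In cell cycle genes, 4 of 22 were at least 2-fold lower and 0 higher, against 7.92% and 6.04% of all rows. The median of -0.42 changed sign at a minimum of 64. Cyclin D1 (Ccnd1) was 324 against 131 (-1.30), and the replication helicase gene Mcm6 rested on 38 and 15 reads. Trp53, which encodes p53, was 46.8 against 150.1 (1.66). Among its targets, Cdkn1a and Ccng1 were 404 against 272 (-0.57) and 8822 against 4459.5 (-0.98), while Mdm2 and Aen were higher (0.146 and 0.675). Of 17 DNA damage and p53 genes past the minimum, 4 were higher and 13 lower. Of 18 imprinted growth genes 16 were lower, with a median of -0.61. Beside Nnat and Dlk1, the growth inhibitor Cdkn1c was 1292 against 714 (-0.85), Igf2 409 against 272 (-0.59) and Ndn 496 against 281 (-0.82).

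Of 22 hypoxia and angiogenesis genes, 2 were at least 2-fold higher and 2 lower. Egln3, an oxygen-sensing prolyl hydroxylase, was 143 against 488 (1.77), and Apln, an angiogenic peptide, 88.1 against 23.4 (-1.87). Among genes of creatine and purine metabolism, Gamt, the last enzyme of creatine synthesis, was 274 against 106 (-1.36) and the AMP deaminase gene Ampd3 35.2 against 84.9 (1.25). Slc30a2, a zinc exporter gene, was 429 against 160.5 (-1.41). Mitochondrial ribosomal proteins had 1 of 77 genes past 2-fold, and their median of -0.02 changed sign under total-count scaling.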
